A study of Mus musculus with 4 samples.

Results

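The let-7 and miR-98 family was examined in the extracellular vesicles of C2C12, a mouse myoblast cell line. Its members were the table rows of the 5p arms of let-7a, b, c, d, e, f, g, i and miR-98 and of let-7d-3p, which gave 13 rows. The opposite arm of every such hairpin added 11 rows. The family thus held 24 of the 2110 rows of the table, 12 from 5p arms and 12 from 3p arms of 12 hairpins. These 24 rows stand for 20 distinct mature sequences, because let-7a, let-7c and let-7f are each encoded by 2 genes with the same 5p sequence, and let-7a-1-3p equals let-7c-2-3p. The WT group held 2 libraries, labelled WT for both genotype and treatment. The damaged group held 2 libraries of the same wild-type line treated with hydrogen peroxide, an oxidant. Both groups grew in DMEM with 10% fetal bovine serum and antibiotics, and vesicles, membrane particles that carry RNA and protein out of cells, were pelleted by differential centrifugation.

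MicroRNAs are cut from a stem-loop precursor (the hairpin) whose stem yields a mature strand on each side, the 5p arm and the 3p arm. One arm is usually loaded into an Argonaute protein and guides it to messenger RNAs that pair with its seed (bases 2 to 8), while the other arm is degraded more often. The let-7 family is one of the most conserved animal microRNA families, accumulates as cells differentiate, represses growth genes such as Hmga2, Lin28 and Ras genes, and is held down in stem cells by the RNA-binding protein LIN28, which recognises let-7 precursors. It is abundant in differentiated tissues, skeletal muscle among them.

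The 9 distinct 5p sequences are shown because they share 1 seed, in capitals, and differ only outside it. All are 22 bases long, and U stands for uracil. They and the sequences that follow are from RefSeq on GRCm38.p6 (mm10), in which 23 of the 24 rows were found at their coordinates; the let-7a-5p row of the let-7a-2 gene was named by its ID, which it shares with the other copy.
let-7c-5p: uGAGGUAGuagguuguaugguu
let-7b-5p: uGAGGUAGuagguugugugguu
let-7f-5p: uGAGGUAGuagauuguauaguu
let-7a-5p: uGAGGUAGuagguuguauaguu
let-7i-5p: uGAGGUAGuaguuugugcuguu
let-7d-5p: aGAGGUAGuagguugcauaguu
let-7g-5p: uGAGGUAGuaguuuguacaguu
let-7e-5p: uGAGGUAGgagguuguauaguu
miR-98-5p: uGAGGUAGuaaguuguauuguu

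Counting from 1 at the 5′ end and with let-7a-5p as the reference, let-7c-5p differs by A19G, let-7f-5p by G12A and let-7e-5p by U9G. let-7b-5p carries A17G and A19G, let-7d-5p U1A and U16C, let-7g-5p G12U and U18C, and miR-98-5p G11A and A19U. let-7i-5p is the farthest from let-7a-5p, with G12U, A17G, U18C and A19U. Of the 36 pairs of 5p sequences, 4 are 1 base apart, so a single wrong base in a read can turn one member into another. How often this happened was not tested; the sources used here do not give the mismatches allowed in alignment.

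The 3p sequences that the results turn on are shown next, again with bases 2 to 8 in capitals. They vary inside that stretch as well as outside it.
let-7a-1-3p and let-7c-2-3p: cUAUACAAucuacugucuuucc
let-7d-3p: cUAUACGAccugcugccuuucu
let-7e-3p: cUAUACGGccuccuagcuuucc
let-7b-3p: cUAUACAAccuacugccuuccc
let-7f-1-3p: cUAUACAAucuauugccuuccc

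let-7d-3p and let-7e-3p each have a seed that no other row of the table has. The seed of let-7b-3p, let-7f-1-3p, let-7a-1-3p and let-7c-2-3p is shared by 5 rows of the table, all in the family. The nearest other mature sequence to let-7d-3p is let-7b-3p, at 4 differences, and the nearest to let-7e-3p is let-7a-2-3p, at 3. The hairpins of these arms are given with both mature arms in capitals, let-7d from chr13:48536012-48536114 (minus strand) and let-7e from chr17:17830352-17830444 (plus strand) of mm10.
Mirlet7d: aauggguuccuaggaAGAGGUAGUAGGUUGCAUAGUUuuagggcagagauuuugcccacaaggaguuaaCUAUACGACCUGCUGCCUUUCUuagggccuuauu
Mirlet7e: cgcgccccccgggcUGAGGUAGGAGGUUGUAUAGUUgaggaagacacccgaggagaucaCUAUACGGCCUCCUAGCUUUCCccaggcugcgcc

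The 4 letters GGAG, known from let-7 precursors as a motif bound by LIN28, were searched for on the RNA strand. They occur in 9 of the 12 family hairpins, all except those of let-7b, let-7c-2 and miR-98. Among all 1005 mouse hairpins of the RefSeq table, which differ in length, 447 (44.5%) hold these letters. A match is a description of the sequence and not evidence of binding.

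The genes lie in several small clusters (mm10). let-7d, let-7f-1 and let-7a-1 are in an exon of the lincRNA 6720427I07Rik on chromosome 13, with the 5p arm of let-7d 1811 bases from that of let-7f-1 and the latter 350 bases from that of let-7a-1. let-7c-2 and let-7b are in an exon of Lncppara on chromosome 15, 709 bases apart, and let-7f-2 and miR-98 are in an intron of Huwe1 on chromosome X, 876 bases apart. let-7e is in an intron of Spaca6 on chromosome 17, next to miR-99b and miR-125a. let-7c-1 is in an intron of Mir99ahg on chromosome 16, with miR-99a, and let-7a-2 in introns of 3110039I08Rik and Gm49317 on chromosome 9, with miR-100. let-7g is in an intron of Wdr82 on chromosome 9 and let-7i in an exon of D630033A02Rik on chromosome 10. None of the 24 rows shares bases with another entry on either strand, so counting without regard to strand did not mix them with an antisense microRNA.

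The values are read counts per mature microRNA. The libraries totalled 4577668 and 7638663 counts in WT and 6901394 and 7350345 in damaged, and a row at 0 may still hold up to 3 counts, or 0.393 to 0.655 CPM (counts scaled to a common library size). These limits and the marker sums of this paragraph are CPM of plain library totals. The levels of single microRNAs given further on are CPM after TMM scaling, which corrects for differences in composition between libraries, so the scales differ slightly. Skeletal muscle markers were abundant and wholly higher in damaged: their summed level was 296085 and 335505 CPM in WT and 357026 and 382592 CPM in damaged. Of their 8 rows, 1 stood at 0 (a copy of miR-1a-3p that shares bases with an opposite entry). Most of the sum was miR-206-3p, with 28.6% and 32.6% of all counts in WT and 33.9% and 36.6% in damaged. Of all single tested rows, 29.1% lay wholly above WT. Blood and liver markers, which serum can bring, summed to 1687 and 1498 CPM in WT and 1507 and 1435 CPM in damaged, nearly all miR-451a, with 3 of 6 rows at 0, all 3 of which share bases with an opposite entry. Neural markers summed to 0.218 CPM in WT replicate 1 and 0 in the other libraries. Of their 8 rows, 7 stood at 0, and 5 of these share bases with an opposite entry. A 0 in a row that shares bases with an opposite entry may not mean absence, because counting disregarded strand. Epithelial markers summed to 0.874 to 6.67 CPM, with 2 of 5 rows at 0. The part of these sources in the results was not tested. Mature let-7 sequences are conserved among vertebrates, so let-7 from the bovine serum and from the mouse cells cannot be told apart. The values are relative to the counts of a library, so neither the number of vesicles nor the amount of a microRNA in each was measured. A change of a microRNA cannot be told apart from an opposite change of the rest of the library.

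The family took nearly the same share of vesicle microRNA reads in both groups. It held 21.9% and 22.5% of all counts in WT replicates 1 and 2, and 21.5% and 22.7% in damaged replicates 1 and 2. The WT mean was 22.2% ± 0.370 and the damaged mean 22.1% ± 0.874 (SD, n = 2 each), and the groups overlapped. Exact 95% binomial intervals (Clopper-Pearson) for single libraries ran from 21.9 to 22.0% in WT replicate 1 and were as narrow elsewhere. They cover counting error only, because each is computed from the counts of a single library. No molecular identifiers are recorded, so repeated copies of a molecule count as separate reads. An exact two-sided permutation test of 2 libraries against 2 cannot give a p below 0.33. Almost all of these reads came from 5p arms: 3p arms made up 0.669% and 0.70% of the family's reads in WT and 0.830% and 0.937% in damaged, with the damaged libraries above both WT libraries.

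The 5p arms differed widely in level and kept the same order in the 4 libraries. All are 22 bases long, so no correction for length applies, but whether read counts reflect the relative amounts of different sequences was not tested. Rows of 1 sequence were summed, since their reads cannot be assigned to a gene copy: the first row of each such set held 48.1% to 50.8% of the set's reads in every library. let-7c-5p (MIMAT0000523) led with 89077 and 92479 CPM in WT and 94039 and 90577 CPM in damaged. let-7b-5p (MIMAT0000522) followed with 42615 and 44490 CPM in WT and 38341 and 39413 CPM in damaged. Both damaged libraries lay below both WT libraries for let-7b-5p, while the groups overlapped for let-7c-5p. These leading members made up 59.6% and 61.2% of the family's 5p reads in WT and 61.8% and 59.2% in damaged.

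let-7f-5p (MIMAT0000525) stood at 30892 and 28372 CPM in WT and 24765 and 27581 CPM in damaged, with both damaged libraries lower. let-7a-5p (MIMAT0000521), which differs from let-7f-5p by a single base, stood at 21015 and 22200 CPM in WT and 22830 and 24428 CPM in damaged, with both damaged libraries higher. Neither passed the test given below. let-7i-5p (MIMAT0000122) followed at 13738 and 13004 CPM in WT and 13107 and 14700 CPM in damaged. let-7d-5p (MIMAT0000383) stood at 11392 and 11695 CPM in WT and 10736 and 11504 CPM in damaged. let-7g-5p (MIMAT0000121) stood at 8506 and 6910 CPM in WT and 6987 and 8032 CPM in damaged. The groups overlapped for all 3 of these.

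The least abundant 5p arms were let-7e-5p and miR-98-5p. let-7e-5p (MIMAT0000524) stood at 2159 and 2875 CPM in WT and 2322 and 2164 CPM in damaged, and the groups overlapped. miR-98-5p (MIMAT0000545) stood at 1578 and 1788 CPM in WT and 1044 and 1303 CPM in damaged, with both damaged libraries lower. Each member lay above the next in all 4 libraries. The narrowest step was from let-7i-5p to let-7d-5p, with means over all libraries 1.20-fold apart, and the widest from let-7g-5p to let-7e-5p, at 3.20-fold.

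**Figure D1:**
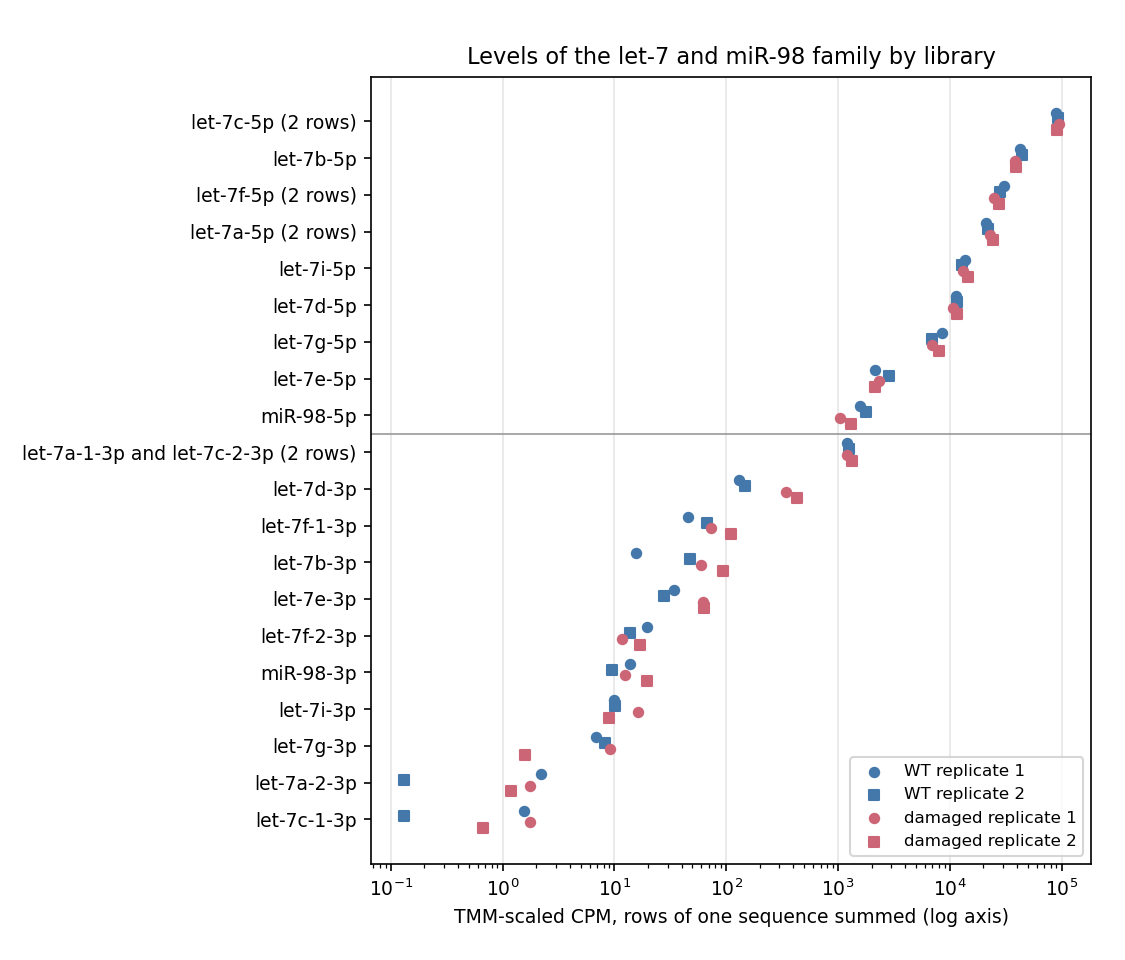
Level of each distinct mature sequence in each library, as TMM-scaled CPM on a log axis; circles and squares are replicates 1 and 2, blue WT and red damaged, and the line parts 5p from 3p arms. The 5p order is the same in all 4 libraries, from let-7c-5p down to miR-98-5p, and let-7d-3p is the 3p arm whose WT values of 132 and 146 lie far from the damaged values of 340 and 426.

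Levels were compared between groups with edgeR's quasi-likelihood test fitted over the whole table, with Benjamini-Hochberg adjustment over the 536 rows that passed the filter on low counts and a threshold of 0.05. All 24 family rows passed that filter. Separate cultures are not stated for the replicates, so the p-values measure only how these samples vary, which may be technical variation. In all, 51 of the 536 rows were called (9.51%), 22 higher (4.10%) and 29 lower (5.41%) in damaged. Of the 24 family rows, 1 was called higher, 0 were called lower and 23 did not pass. An unadjusted p under 0.05 was found in 3 of the 24, beside 165 of all 536 tested rows. The median log2 fold change was 0.05 over the family rows and 0.02 over all tested rows.

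None of the 12 5p rows passed in edgeR, and 1, miR-98-5p, had an unadjusted p under 0.05. Of all 291 tested 5p rows, 10 were called higher and 21 lower, and 85 had an unadjusted p under 0.05. miR-98-5p was also the 1 row that DESeq2 called among the family's 5p rows, and limma-voom called 0 of these rows. Their log2 fold changes ran from -0.52 to 0.14 with a median of -0.05, and the median of all 291 tested 5p rows was also -0.05 at 2 decimals. The damaged libraries lay wholly above WT in 2 of the 12 rows, both copies of let-7a-5p. They lay wholly below in 4, which are let-7b-5p, both copies of let-7f-5p and miR-98-5p. The copies of let-7a-5p hold 1 sequence with its reads split between them, as do those of let-7f-5p. Each pair thus stands for 1 measurement. Over all tested rows 29.1% lay wholly above and 30.8% wholly below, and of the 291 tested 5p rows 77 and 107 did. The log2 fold changes were 0.12 ± 0.11 and 0.14 ± 0.11 for the copies of let-7a-5p, -0.16 ± 0.10 for let-7b-5p and -0.20 ± 0.12 and -0.16 ± 0.12 for the copies of let-7f-5p (SE, adjusted p by edgeR of 0.300 or more).

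miR-98-5p, the paralog that shares the Huwe1 intron with let-7f-2, had the most negative change of the 5p arms. The WT libraries averaged 1683 ± 148 CPM and the damaged libraries 1174 ± 182 CPM (SD, n = 2 each). The log2 fold change was -0.52 ± 0.16 (SE) and missed the threshold (edgeR adjusted p = 0.0903). In the other settings on 4 libraries it passed in 3 of 12, with adjusted p-values from 0.00333 to 0.458. Correcting for GC content brought its log2 fold change to -0.31 (edgeR adjusted p = 0.458). Without miR-98-5p, the other 11 5p rows had log2 fold changes of -0.20 to 0.14, with SE of 0.10 to 0.17 over the 5p rows.

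**Figure D2:**
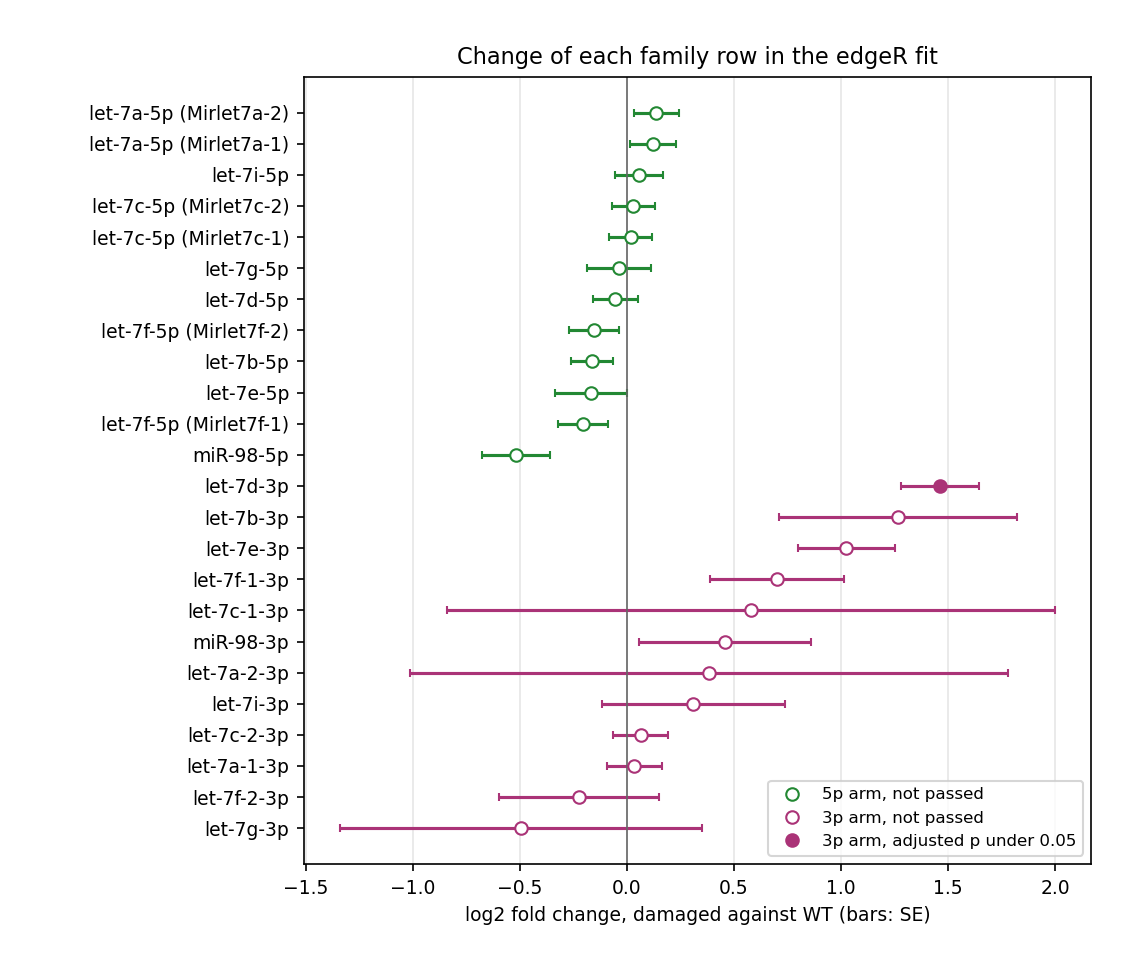
Log2 fold change of each of the 24 family rows, damaged against WT, in the edgeR fit (bars, SE; filled point, adjusted p under 0.05). The 5p arms lie between -0.52 and 0.14, and the 3p arms spread from -0.50 to 1.46, with let-7d-3p the only filled point.

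The 3p arms were scarce, and let-7d-3p (MIMAT0000384; chromosome 13, 48536024 to 48536045), the strand opposite let-7d-5p, was the member that rose. It stood at 132 and 146 CPM in WT (594 and 1112 counts) and 340 and 426 CPM in damaged (2329 and 3205 counts), with both damaged libraries far above both WT libraries. The WT libraries averaged 139 ± 10.2 CPM and the damaged libraries 383 ± 61.2 CPM (SD, n = 2 each). The log2 fold change was 1.46 ± 0.18 (SE), or 2.76-fold, and passed the edgeR test (adjusted p = 0.0161), the 12th smallest p of the 536 rows. It passed in all 12 other settings on 4 libraries, with log2 fold changes of 1.40 to 1.53 and adjusted p-values of 0.0180 or less. With 1 library left out the change was 1.28 to 1.59, and the call held without damaged replicate 2 (edgeR adjusted p = 0.0358) but not without damaged replicate 1 (0.0985), WT replicate 1 (0.155) or WT replicate 2 (0.132).

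let-7e-3p came next by p. It stood at 34.1 and 27.6 CPM in WT and 61.7 and 63.6 CPM in damaged, with both damaged libraries higher. The log2 fold change of 1.03 ± 0.23 (SE) missed the threshold narrowly (edgeR adjusted p = 0.0523). It passed in 10 of the 12 other settings on 4 libraries, with adjusted p-values from 0.00375 to 0.0546, and in none of the 4 fits that left out a library (0.116 to 0.192).

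let-7b-3p and let-7f-1-3p also had both damaged libraries above both WT libraries without passing. let-7b-3p stood at 15.5 and 47.5 CPM in WT and 59.2 and 94.2 CPM in damaged (log2 fold change 1.27 ± 0.55, SE, edgeR adjusted p = 0.198). WT replicate 1 is low here, and the log2 fold change ran from 0.61 to 2.33 as single libraries were left out. let-7f-1-3p, from the same lincRNA exon as let-7d, stood at 45.2 and 67.8 CPM in WT and 73.2 and 111 CPM in damaged (0.70 ± 0.31, SE, edgeR adjusted p = 0.205), or 0.36 to 1.06 with single libraries left out. In the other settings on 4 libraries let-7b-3p passed in 3 of 12 (adjusted p-values from 8.67e-05 to 0.215) and let-7f-1-3p in 1 of 12 (0.0299 to 0.273).

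The most abundant 3p sequence had overlapping groups. The sequence shared by let-7a-1-3p and let-7c-2-3p stood at 1208 and 1248 CPM in WT and 1205 and 1335 CPM in damaged, and its rows had log2 fold changes of 0.03 ± 0.13 and 0.06 ± 0.13 (SE). It held 81.2% and 79.0% of the family's 3p reads in WT and 67.2% and 64.2% in damaged. let-7d-3p held 8.84% and 9.25% in WT and 19.0% and 20.5% in damaged. let-7f-2-3p, miR-98-3p, let-7i-3p and let-7g-3p lay between 1.60 and 19.7 CPM, with overlapping groups. let-7a-2-3p and let-7c-1-3p lay near the limit of detection, at 0.131 to 2.21 CPM, with 1 count each in WT replicate 2.

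Taken as a set of 12, the 3p rows had 1 call, a median log2 fold change of 0.42 and 10 values above 0. The rows of let-7a-1-3p and let-7c-2-3p hold 1 sequence with its reads split between them. All 244 tested 3p rows had 12 called higher and 8 lower in edgeR, with a median of 0.11 and 137 values above 0. The damaged libraries lay wholly above WT in 4 of the 12 3p rows and wholly below in 0. Of all 244 tested 3p rows, 78 lay wholly above and 58 wholly below. The difference between the family's 3p rows and other 3p rows was not tested.

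Whether the arms of a hairpin changed by different amounts was tested directly. The 5p and 3p counts of each of the 151 hairpins with both arms past the filter were compared in edgeR with hairpin as gene and arm as exon (diffSpliceDGE), and p-values were adjusted over these hairpins. The test called 8 of 151 hairpins (5.30%), 4 toward the 3p arm (2.65%) and 4 toward the 5p arm (2.65%). Before adjustment, 28 of the 151 hairpins and 4 of the 12 family hairpins had a p under 0.05. Of the 12 family hairpins, 1 was called, toward the 3p arm.

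That hairpin was let-7d. Its 3p arm made up 1.14% (exact 95% interval 1.05 to 1.24) and 1.23% of the hairpin's reads in WT, and 3.07% and 3.57% in damaged. The damaged libraries stood above both WT libraries. The log2 ratio of 3p to 5p changed by 1.52 ± 0.21 (SE), or 2.86-fold, with an edgeR adjusted p of 0.00346 and the smallest p of the 151 hairpins. let-7d-5p itself had a log2 fold change of -0.05 ± 0.10 (SE, edgeR adjusted p = 0.820). The row test and the arm test use the same let-7d-3p reads and are not independent of each other. The arm call held without damaged replicate 1 (1.62, edgeR adjusted p = 0.0279) but not without damaged replicate 2 (1.40, 0.0913), WT replicate 1 (1.46, 0.150) or WT replicate 2 (1.58, 0.0601). It was also lost with limma on the log2 ratios (1.51, adjusted p = 0.285), which called 0 of 151 hairpins and had 18 at an unadjusted p under 0.05.

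let-7e had the second smallest p of the family hairpins. Its 3p share was 1.55% and 0.95% in WT and 2.59% and 2.85% in damaged, a log2 change of 1.19 ± 0.34 (SE) that did not pass (edgeR adjusted p = 0.0667). The damaged libraries were also wholly higher for let-7b, with shares of 0.0364% and 0.107% in WT and 0.154% and 0.238% in damaged (log2 change 1.43 ± 0.46, SE, edgeR adjusted p = 0.109). The same held for let-7f-1, with 0.297% and 0.485% in WT and 0.609% and 0.828% in damaged (0.90 ± 0.31, SE, edgeR adjusted p = 0.12). In the other settings on 4 libraries, let-7b passed in 2 of 6 (adjusted p-values from 0.0402 to 0.383), let-7e in 1 of 6 (0.0179 to 0.377) and let-7f-1 in 1 of 6 (0.0433 to 0.467). For all 3 of them a stricter filter, which kept rows reaching 10 CPM in 2 libraries or more, was such a setting. That filter left 71 hairpins and called 20 of them, 13 toward the 3p arm and 7 toward the 5p arm. For miR-98 the shares, also wholly higher in damaged, were 0.862% and 0.533% in WT and 1.17% and 1.47% in damaged (0.98 ± 0.50, SE, edgeR adjusted p = 0.395). let-7a-1 was the family hairpin with damaged shares wholly lower, at 5.41% and 5.28% in WT and 4.97% and 5.11% in damaged (-0.09 ± 0.17, SE, edgeR adjusted p = 0.852). How many of all 151 hairpins had wholly higher or lower shares was not counted. For levels, 29.1% of all tested rows lay wholly above WT and 30.8% wholly below. Levels are a different measure, so these percentages are not a background for the arm shares. For let-7a, let-7c and let-7f the share depends on how identical 5p reads were split between gene copies, so it is not a property of 1 gene. The same holds for the 3p reads of let-7a-1 and let-7c-2.

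Over the 12 family hairpins the log2 change of 3p against 5p was above 0 in 9, with a median of 0.43. Over all 151 hairpins it was above 0 in 86, with a median of 0.16. In all 12 family hairpins the 3p arm is the scarcer one, and over all hairpins the scarcer arm changed by a median of 0.25 relative to the more abundant one.

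**Figure D3:**
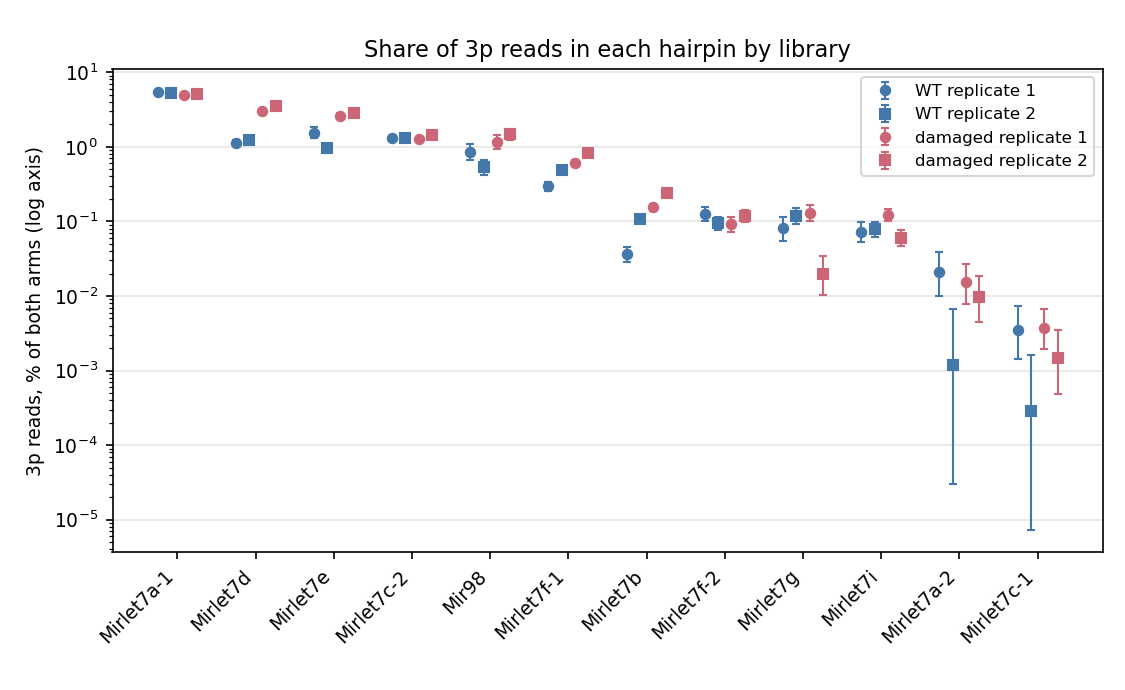
Reads of the 3p arm as a percentage of both arms of each family hairpin, on a log axis, in each library (bars, exact 95% intervals, counting error only; blue WT, red damaged). For let-7d the shares are 1.14% and 1.23% in WT and 3.07% and 3.57% in damaged, while let-7c-2 stays between 1.26% and 1.45%.

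**Figure D4:**
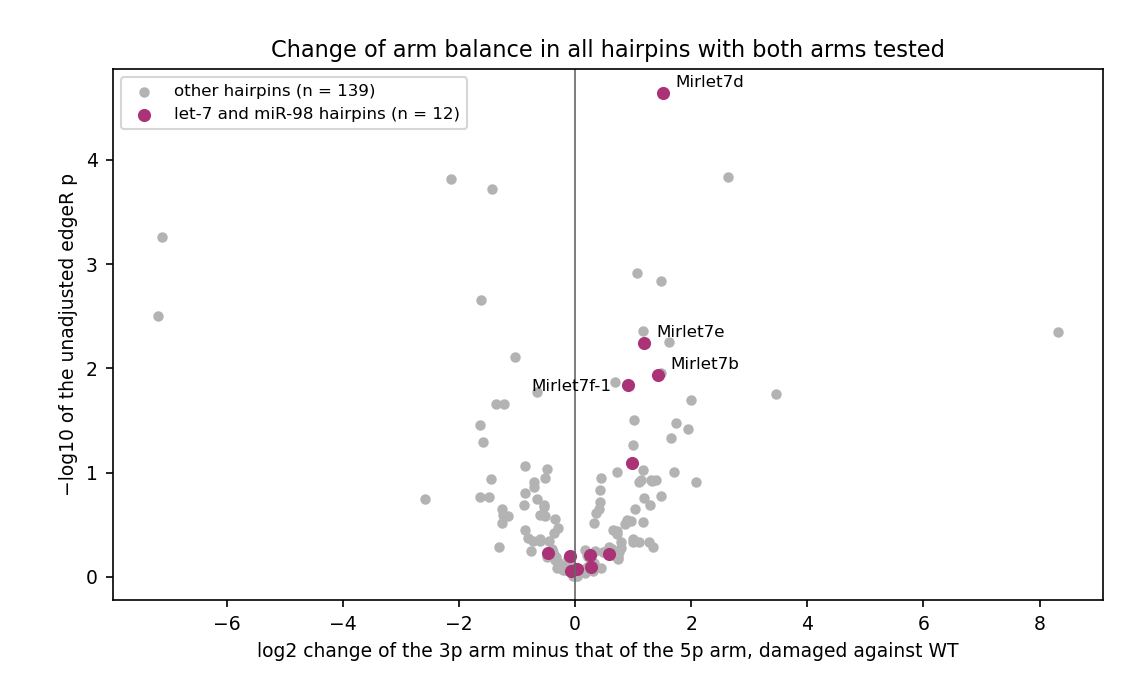
Change of arm balance in 151 hairpins: the log2 change of the 3p arm minus that of the 5p arm, damaged against WT, against −log10 of the unadjusted edgeR p (purple, the 12 family hairpins; grey, the others). let-7d, at 1.52, has the smallest p of all. let-7e, let-7b and let-7f-1 have an unadjusted p under 0.05 but did not pass after adjustment. In all, 28 of the 151 hairpins have an unadjusted p under 0.05.

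The let-7e, let-7c-1 and let-7a-2 genes share their primary transcripts with the miR-99, miR-100 and miR-125 families, which made a comparison list of 12 rows. Of these, 3 were called higher, 0 lower and 9 did not pass in edgeR, while 4.10% of all tested rows were called higher and 5.41% lower. An unadjusted p under 0.05 was found in 6 of the 12, beside 165 of all 536 tested rows. The median log2 fold change of the 12 rows was -0.03. miR-125a-5p, the neighbour of let-7e, stood at 765 and 952 CPM in WT and 1464 and 1868 CPM in damaged (log2 fold change 0.96 ± 0.18, SE, edgeR adjusted p = 0.0360). miR-125b-5p, whose copies lie with let-7a-2 and let-7c-1, rose in both rows (0.78 ± 0.13 and 0.75 ± 0.13, SE, edgeR adjusted p = 0.0305). These rows hold the same sequence with its reads split between the copies, so both stand for 1 measurement among the 3 calls. The let-7 5p arms of those transcripts did not pass: let-7e-5p had a log2 fold change of -0.17 ± 0.17 (SE, edgeR adjusted p = 0.563), and the let-7a and let-7c rows are given above. The difference in change between neighbours was not tested. The miR-125b-1 hairpin was among the 4 called toward the 5p arm, the direction opposite to let-7d. Its 3p share was 26.3% and 19.4% in WT and 10.5% and 9.20% in damaged (log2 change -1.43 ± 0.25, SE, edgeR adjusted p = 0.00717). The 5p reads of miR-125b-1 are split with the identical miR-125b-2 copy.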

How the data were processed

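Small RNA reads of 4 vesicle libraries, 2 WT and 2 damaged, were deposited as counts per mature miRNA entry, 1 column per library. BWA, featureCounts, FastQC and mm10 are named in the submitters' processing notes. Per the file headers, featureCounts 2.0.1 made the counts, with no strand or multi-mapping option in its command. The sources used here do not give the BWA version, the adapter trimming or the miRBase release.

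Rows were named by coordinates from RefSeq (GRCm38.p6) and GENCODE vM21 hairpins, within 3 bases; a row was taken as the other arm if it started within 60 bases on the same strand. Row levels were tested with edgeR 4.0.16 (R 4.3.3; TMM, filterByExpr at a minimum count of 10, group only, Benjamini-Hochberg at 0.05), and arm balance with diffSpliceDGE of the same tool. The SE of a log2 fold change is its size over the square root of F. CPM of single rows and sequences are TMM-scaled; marker sums, detection limits and shares use plain library totals. Scripts were tested on simulated data. Every family row was reported, with lists of cluster partners, rows of the same seed and cell type markers. The members and lists were chosen with earlier results of these data known. Alternatives were other scalings and filters, DESeq2 1.42.0, limma 3.58.1, a GC correction, a replicate block, identical IDs summed and each library left out.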

Additional observations from a re-analysis of the deposited data

How the results depend on the processing

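The direction and call of 429 of 495 values of family rows and hairpins under the other settings were as reported, 7 lost their call, 21 gained one and 38 turned sign, none of which was a call. Family rows called were 2 with RLE, upper quartile or total-count scaling, with at least 10 CPM in 2 libraries, with limma-voom or with identical IDs summed, 3 with DESeq2 and 5 without a filter. Family hairpins called were 4 with the 10 CPM filter, which called 20 of the 71 hairpins it kept. They were 0 with limma on log2 ratios, which called 0 of 151. With single libraries left out, 0 to 1 family row and 0 to 1 family hairpin were called. Over the whole table the calls higher and lower were 63 and 68 without a filter, 40 and 51 with the 10 CPM filter, 45 and 64 by DESeq2 and 35 and 44 by limma-voom, with 48 lower by upper quartile scaling. Leaving out 1 library gave 0 to 11 higher and 0 to 19 lower by edgeR; the 3 fits with 0 calls, those without damaged replicate 1, WT replicate 1 or WT replicate 2, had 103 or more rows at an unadjusted p under 0.05. The lone library of a group is then assumed to vary like the other group's. Arm fits without damaged replicate 2, WT replicate 1 or WT replicate 2 called 0 hairpins, with 26, 17 and 33 at an unadjusted p under 0.05. Without miR-206-3p in the denominator the family's WT share was 32.04% ± 1.82 and its damaged share 34.12% ± 2.34 (SD, n = 2 each).

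The labels number the replicates but do not pair them, and the deviations of same-numbered libraries correlated with r = 0.003 over 536 rows. With the replicate block, edgeR called 56 rows higher and 71 lower, 4 of them family rows. It called 6 of 151 hairpins under the block, 2 of them in the family. With the replicate block and a GC offset, 39 rows were higher and 41 lower, and 3 family rows were called. Under the block with a GC offset, log2 fold changes of the opposite sign were 0.0102 for let-7d-5p, 0.0789 for let-7g-5p and 0.0328 for let-7f-5p (Mirlet7f-2).

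The other sign changes were of small or thinly counted values. By upper quartile scaling they were -0.00383 for let-7i-5p, -0.0302 for let-7a-1-3p, -0.0358 and -0.0477 for the let-7c-5p rows and -0.00190 for let-7c-2-3p. With the GC offset they were 0.00988 for let-7d-5p, 0.00383 and 0.0536 for the let-7f-5p rows and 0.0820 for let-7g-5p, which was 0.00609 without a filter. With 1 library left out, log2 fold changes ran from -0.0383 to 0.113 for let-7i-5p, -0.209 to 0.670 for let-7i-3p, -0.0626 to 0.0803 for let-7a-1-3p, -0.0762 to 0.0856 and -0.0864 to 0.0717 for the let-7c-5p rows, -0.0438 to 0.12 for let-7c-2-3p, -0.333 to 2.97 for let-7c-1-3p, -0.437 to 0.0822 for let-7e-5p, -0.556 to 3.26 for let-7a-2-3p, -0.152 to 0.0416 for let-7g-5p, -2.27 to 0.267 for let-7g-3p and -0.525 to 0.00130 for let-7f-2-3p. Arm balance ran from -0.321 to 0.708 for Mirlet7i, -0.0717 to 0.134 for Mirlet7c-2, -0.407 to 3.05 for Mirlet7c-1, -0.764 to 3.24 for Mirlet7a-2, -2.30 to 0.421 for Mirlet7g and -0.280 to 0.145 for Mirlet7f-2. The cause of these changes was not tested. Depth limits the arms near 1 CPM, where the SE of a log2 fold change reached 1.42.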

Other observations

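Rows outside the family also carry let-7-like 5′ ends. The seed of the 5p arms occurs in 14 rows of the table, of which 12 are family rows. The others are let-7k, with 16 and 46 counts in WT and 46 and 71 in damaged, and miR-1961, with 0 counts in 3 libraries and 3 in damaged replicate 2. let-7j differs from that seed in its last base and had 993 and 1340 counts in WT and 1297 and 1537 in damaged. These entries are shown with bases 2 to 8 in capitals because reads of let-7 arms could be counted in them, which was not tested.
let-7j: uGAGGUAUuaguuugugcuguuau
let-7k: uGAGGUAGgagguugugug
miR-1961: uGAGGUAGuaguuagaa

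The make-up of the 5p pool can be read without the other vesicle microRNAs. As a share of the family's 5p reads, let-7a-5p was 9.51% and 9.92% in WT and 10.7% and 11.1% in damaged, and let-7b-5p was 19.3% and 19.9% in WT and 17.9% and 17.9% in damaged. let-7f-5p was 14.0% and 12.7% in WT and 11.6% and 12.6% in damaged, and miR-98-5p was 0.714% and 0.799% in WT and 0.488% and 0.593% in damaged. let-7c-5p, let-7d-5p, let-7e-5p, let-7g-5p and let-7i-5p overlapped between groups on this scale.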
